A study of Homo sapiens with 23 samples.

Results

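FHIT, WWOX, LRP1B, IMMP2L, CNTNAP2 and MACROD2 are 6 very long human genes that lie in common fragile sites. Nascent-strand peaks, which mark places where DNA replication starts, were sparser inside these genes than in the DNA on either side. After aphidicolin, a DNA polymerase inhibitor that is used in the laboratory to provoke breaks at fragile sites, the genes held 188 nascent-strand peaks, or 19.2 per Mb. Their flanks held 731 peaks, or 37.4 per Mb, and the gene-to-flank ratio was 0.514 (95% interval 0.436 to 0.605). A comparable ratio, between 0.472 and 0.558, was found in the other 3 HCT116 nascent-strand lists. These came from a clone depleted of the deacetylase SIRT1 and from that clone rescued with wild-type SIRT1 or the mutant T530A. None of them is from untreated wild-type cells. With all peaks counted, the genes' share of the aphidicolin list was not above their share of the other 3 lists beyond the counting interval. With the higher-scoring 50% of each list it was 1.54 times the share of depleted cells (1.055 to 2.27). Against either rescue the interval still included 1. The flanks' share was then 1.28 times that of depleted cells (1.09 to 1.49), so a rise particular to the genes is not shown. By length under peaks, which has no interval, the ratios were 1.39, 1.41 and 1.20 to depleted, wild-type rescue and T530A cells. The flanks' share of the length under peaks was also higher after aphidicolin than in each of these lists.

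The members of the set are the peaks of 21 deposited peak lists that share at least 1 bp with the hg19 span of one of the 6 genes. These were 3161 regions of 1741457 in all lists together, and 10895 regions lay in the flanks. A flank is the stretch on either side that is as long as the gene itself, so each gene has 2 flanks. The spans were chr3:59735036-61237133 for FHIT, chr16:78133327-79246564 for WWOX and chr2:140988996-142889270 for LRP1B. They were chr7:110303106-111202573 for IMMP2L, chr7:145813453-148118088 for CNTNAP2 and chr20:13976146-16033842 for MACROD2. The shortest gene, IMMP2L, spans 0.90 Mb and the longest, CNTNAP2, 2.30 Mb, and together they make up 9.78 Mb. WWOX, CNTNAP2 and MACROD2 are read on the plus strand and the other 3 on the minus strand. The peaks were not chosen by their values.

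Common fragile sites are chromosome regions that show gaps and breaks on metaphase chromosomes when replication is slowed, and they are frequent places of deletion in cancer cells. Many overlap very long genes that replicate late. As background, few replication origins in the core of a fragile site, and collisions of replication with transcription of a long gene, have each been described as reasons why such regions finish replication late. FHIT encodes a diadenosine triphosphate hydrolase at the site FRA3B, and WWOX encodes an oxidoreductase with WW domains at FRA16D. IMMP2L encodes a subunit of the mitochondrial inner membrane peptidase. LRP1B is a lipoprotein receptor, CNTNAP2 a neuronal cell-adhesion protein and MACROD2 an enzyme that removes ADP-ribose.

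The lists come from HCT116, a colon carcinoma line, and K562, a chronic myelogenous leukaemia line. HCT116 nascent strands came from wild-type cells given 200 nM aphidicolin for 24 h and then released for 24 h, from a clone depleted of SIRT1, and from that clone carrying either wild-type SIRT1 (wild-type rescue) or the mutant T530A (T530A rescue). SIRT1 is a deacetylase, and T530A cannot be phosphorylated at threonine 530. HCT116 ChIP lists covered SIRT1 phosphorylated at T530 (pSIRT1), MCM2 phosphorylated at S139 (pMCM2), a helicase subunit, and histone H4 acetylated at lysine 16 (H4K16ac). K562 cells, separated into cell-cycle fractions, gave nascent strands in early, middle and late S. Both ChIP antibodies to phosphorylated proteins were also used in these 3 S-phase fractions and in G1 and G2 cells, and pSIRT1 in unfractionated K562 cells.

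Every group is 1 library, so no difference could be set against replicates and no p-value is given. Intervals are exact (Clopper-Pearson) 95% intervals that cover counting error only. The depleted and rescue cells are 1 clone each, as labelled. Untreated wild-type HCT116 nascent strands and the 2 genomic DNA controls were not analysed here, so the drug cannot be told apart from the clone and the rescue. The 4 HCT116 nascent-strand lists held 74479 to 109990 peaks with 13701955 to 20014274 reads in peaks, and the 3 K562 lists held 67803 to 81959 peaks with 5870637 to 6810838 reads.

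The gene starts are described first, because the deposited peaks touch some of them and not others. A nascent-strand peak of the aphidicolin list covered the start of FHIT, reaching from 5467 bp upstream to 1132 bp downstream, with 203 reads. The same start lay under peaks of the wild-type rescue list (91 reads), the T530A rescue list (83 reads) and the K562 G1 pSIRT1 list (34 reads). The start of MACROD2 lay under 4 lists too, all of them ChIP lists: HCT116 pSIRT1 with 33 reads, K562 pSIRT1 in late S with 42, and K562 pMCM2 in G1 and early S with 19 and 25. FHIT was thus the one gene of the set whose start lay under a nascent-strand peak in any list.

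None of the 21 lists had a peak within 2 kb of the CNTNAP2 start. The start of LRP1B was covered by no list, but 8 lists had a peak within 2 kb, among them the depleted, wild-type rescue and T530A nascent-strand lists. That of IMMP2L was covered by 1 list, K562 pSIRT1 of unfractionated cells. WWOX had a peak within 2 kb in 2 lists and over its start in none.

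The upstream DNA of FHIT and MACROD2, whose starts were each covered in 4 lists, and of CNTNAP2, with no peak within 2 kb of its start in any list, is shown for comparison. It is the 250 bases before the gene start from the RefSeq promoter table (GRCh38.p14), 5′ to 3′ on the strand of the gene, with each CG in capitals. The table held 5 of the 6 genes, matched by symbol: FHIT, WWOX, IMMP2L, CNTNAP2 and MACROD2. The positions are chr3:61251453-61251702 (minus strand) for FHIT, chr20:13995266-13995515 (plus) for MACROD2 and chr7:146116551-146116800 (plus) for CNTNAP2. The peaks are on hg19, so they were not placed on these bases.
FHIT: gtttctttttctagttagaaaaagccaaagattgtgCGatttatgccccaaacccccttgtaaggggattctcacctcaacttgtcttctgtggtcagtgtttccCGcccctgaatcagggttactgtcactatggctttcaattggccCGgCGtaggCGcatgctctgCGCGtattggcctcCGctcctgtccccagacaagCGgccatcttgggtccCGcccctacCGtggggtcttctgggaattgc
MACROD2: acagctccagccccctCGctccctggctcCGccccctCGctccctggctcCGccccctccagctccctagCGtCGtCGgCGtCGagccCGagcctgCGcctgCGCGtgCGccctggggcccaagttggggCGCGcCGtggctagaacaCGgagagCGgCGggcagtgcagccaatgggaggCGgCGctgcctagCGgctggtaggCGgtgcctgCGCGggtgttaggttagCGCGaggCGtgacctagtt
CNTNAP2: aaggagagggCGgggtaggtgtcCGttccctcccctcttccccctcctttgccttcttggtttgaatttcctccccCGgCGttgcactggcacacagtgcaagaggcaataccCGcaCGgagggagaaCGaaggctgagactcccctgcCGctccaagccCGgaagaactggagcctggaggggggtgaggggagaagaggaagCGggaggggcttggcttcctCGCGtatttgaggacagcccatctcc

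CG was searched for as the letters CG, which read the same on both strands. The window held 11 CG in FHIT, 29 in MACROD2 and 12 in CNTNAP2, with 27 in WWOX and 24 in IMMP2L. Across the 35116 promoters of the table the median was 11, and 93.9% held at least 1. At least as many CG as in MACROD2 were found in 14.1% of them, and at least as many as in FHIT in 50.3%. FHIT, under 3 nascent-strand lists, and CNTNAP2, with no peak near its start, therefore had almost the same number of CG.

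In the aphidicolin list each of the 6 genes was sparser than its 2 flanks combined. FHIT held 32 peaks against 68 in the 5′ flank and 76 in the 3′ flank. WWOX held 39 against 49 and 81. For LRP1B the numbers were 12 against 29 and 47, so its density, 6.32 per Mb, was the lowest of the set against a genome average of 32.0 per Mb. This is the gene with the fewest start sites per length in HCT116 cells.

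CNTNAP2 had 37 aphidicolin peaks against 47 in the 5′ flank and 114 in the 3′ flank, which holds the genes CUL1 and EZH2 in the RefSeq gene order. MACROD2 had the most peaks of the set, 53, but still fewer than either flank, with 67 and 107. IMMP2L was the exception to being below both sides, with 15 peaks against 37 in the 5′ flank and 9 in the 3′ flank.

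As ratios to both flanks, the 6 genes lay between 0.316 (0.156 to 0.584) for LRP1B and 0.652 (0.338 to 1.19) for IMMP2L. The interval lay below 1 in 5 genes and included 1 in IMMP2L. All 6 were at or below 1/1.5 of their flanks. Of 1.5 Mb windows across the genome set against their 2 neighbouring windows, 18.5% reached that limit in the same list. A density below both neighbours was found in 5 of the 6 genes and in 26.5% of windows. The genes were thus low against their flanks more often than a window of the genome was. The ratio was lowest in LRP1B, but with flanks of 0.5 times the length it was 0.522 (0.237 to 1.09), above FHIT at 0.50, and its interval then includes 1.

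**Figure D1:**
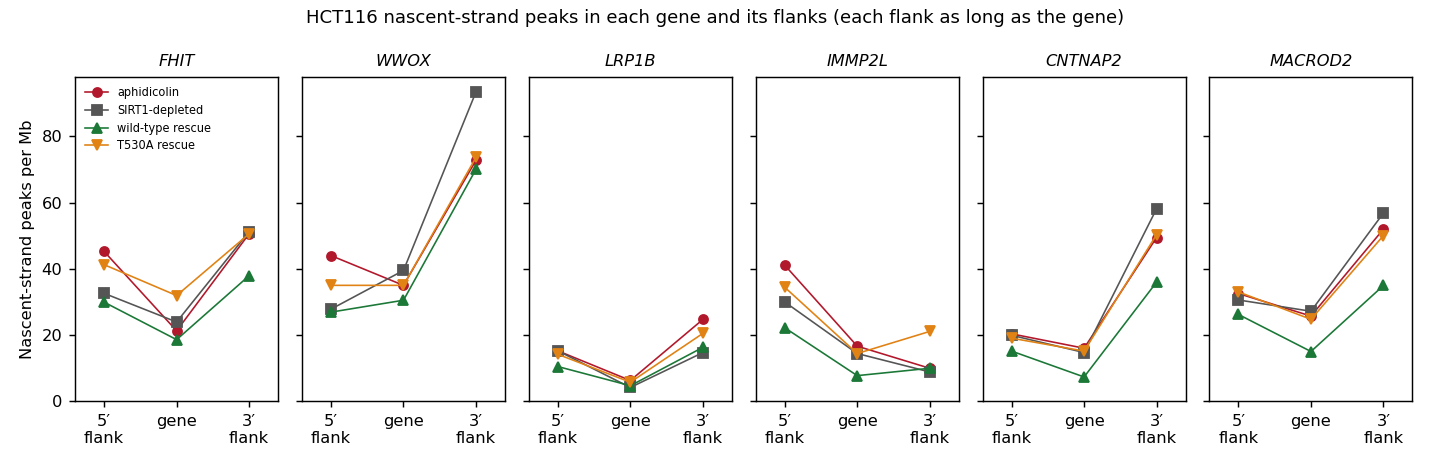
Nascent-strand peaks per Mb (vertical axis) in the 5′ flank, the gene and the 3′ flank of each of the 6 genes, with 1 marker per HCT116 list joined by lines. In FHIT, LRP1B, CNTNAP2 and MACROD2 the gene is the lowest point in all 4 lists. In IMMP2L the 3′ flank is as low as the gene or lower in some of them.

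The other HCT116 nascent-strand lists gave nearly the same picture without the drug. The pooled ratio was 0.536 (0.454 to 0.629) in SIRT1-depleted cells, 0.472 (0.3855 to 0.574) in the wild-type rescue and 0.558 (0.474 to 0.6545) in the T530A rescue. At or below 1/1.5 of their flanks were 5 genes in depleted cells (19.4% of windows), 6 in the wild-type rescue (21.9%) and 5 in the T530A rescue (17.9%). LRP1B had 12, 8, 9 and 11 peaks in the aphidicolin, depleted, wild-type rescue and T530A lists, and was the sparsest gene in each. FHIT had 32, 36, 28 and 48 peaks in the same order, and MACROD2 53, 56, 31 and 51. CNTNAP2 held 37, 34, 17 and 35 peaks, WWOX 39, 44, 34 and 39, and IMMP2L 15, 13, 7 and 13. The wild-type rescue list, which is the shortest and has the widest peaks, had the lowest number in 5 of the 6 genes, with LRP1B lowest in depleted cells.

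The genes' share of each list scales the counts to list length. It was 0.194% in the aphidicolin list, 0.174% in depleted cells, 0.169% in the wild-type rescue and 0.1895% in the T530A rescue. The aphidicolin share was 1.12 times that of depleted cells (0.908 to 1.37), 1.15 times that of the wild-type rescue (0.909 to 1.45) and 1.02 times that of the T530A rescue (0.833 to 1.26). The flanks gave 1.16, 1.05 and 1.11 in the same comparisons. With all peaks counted, no enrichment of the 6 genes after aphidicolin was detectable at these counts. The intervals allow a rise of up to 1.37, 1.45 and 1.26 times. Scaling does not fully remove the difference in list length. With each pair of lists cut by score to equal length, the ratios were 1.24 (0.993 to 1.54), 0.984 (0.762 to 1.27) and 1.07 (0.865 to 1.32) in the same order.

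Single genes varied around these values. Against depleted cells, LRP1B was at 1.70 (0.639 to 4.80) and was the only one of 6 at or above 1.5 times, where 9.69% of windows lay. Against the wild-type rescue, IMMP2L at 1.645 (0.632 to 4.77) and CNTNAP2 at 1.67 (0.918 to 3.17) passed that limit, as did 11.9% of windows. Against the T530A rescue none did (3.88% of windows), and FHIT was lowest at 0.715 (0.442 to 1.14). All of these intervals include 1.

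Read counts changed the comparison. Among the higher-scoring 50% of each list, the genes held 68 aphidicolin, 50 depleted, 35 wild-type rescue and 61 T530A peaks. The aphidicolin share was then 1.54 times that of depleted cells (1.055 to 2.27), 1.49 times that of the wild-type rescue (0.978 to 2.31) and 1.195 times that of the T530A rescue (0.833 to 1.72), so the interval excluded 1 in the first of these. The flanks moved the same way, to 1.28 (1.09 to 1.49), 1.11 (0.942 to 1.32) and 1.18 (1.01 to 1.38). Their values were lower, but their intervals overlap those of the genes and exclude 1 against depleted and T530A cells. A rise particular to the genes is thus not shown. By length under peaks, the aphidicolin list placed 0.170% in the genes against 0.122%, 0.121% and 0.142% in the other 3. The flanks' share was also highest after aphidicolin, with 2280.5 kb of 314.3 Mb genome-wide. The depleted, wild-type rescue and T530A lists had 2146.6 kb of 384.2 Mb, 2358.1 kb of 372 Mb and 2053.0 kb of 342.7 Mb in the flanks. WWOX contributed the largest part of the length in the genes. There, 199.0 kb lay under aphidicolin peaks, against 153.6, 160.4 and 152.8 kb in the depleted, wild-type rescue and T530A lists. Whether the drug, the clone or the depth of the libraries goes with this difference was not tested.

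Peaks in these genes had fewer reads than the average peak, except in WWOX. The median aphidicolin peak held 101 reads genome-wide, 68 in MACROD2, 70 in LRP1B, 72 in CNTNAP2, 84 in FHIT and 87 in IMMP2L. In WWOX it held 178 reads and was 4200 bp wide, against 2400 bp for the whole list. The aphidicolin peak with the most reads in the set was the one at the 3′ end of WWOX, chr16:79225601-79248600, with 958 reads. The highest peaks of the other genes held 372 reads in FHIT, 321 in IMMP2L, 243 in MACROD2, 187 in LRP1B and 164 in CNTNAP2.

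Of the 188 aphidicolin peaks in the genes, 57 overlapped no peak of the other 3 HCT116 nascent-strand lists, or 30.3% (23.8 to 37.4). The share was 26.3% (23.1 to 29.6) in the flanks and 19.6% genome-wide. By gene, such peaks were 17 of 53 in MACROD2, 16 of 37 in CNTNAP2, 9 of 32 in FHIT, 6 of 12 in LRP1B, 5 of 15 in IMMP2L and 4 of 39 in WWOX. WWOX peaks were the most often shared between lists. Of the lists without the drug, the wild-type rescue gave 19.8% (13.3 to 27.9) in the genes, 14.2% (11.4 to 17.5) in the flanks and 10.4% genome-wide. Depleted cells gave 36.1% (29.3 to 43.4), 26.1% (22.9 to 29.5) and 26.2%. The T530A rescue gave 26.9% (20.85 to 33.7), 21.25% (18.3 to 24.45) and 17.7%. In all 4 HCT116 lists the intervals of genes and flanks overlap. Peaks that overlapped all 3 other lists were 21.8% of aphidicolin peaks in the genes and 30.2% in the flanks. The genome-wide share of such peaks is not given.

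All 21 lists had fewer peaks per Mb in the 6 genes than in the flanks. In HCT116 ChIP the ratio was lowest for H4K16ac, at 0.362 (0.313 to 0.417), then 0.424 (0.352 to 0.507) for pSIRT1 and 0.794 (0.695 to 0.905) for pMCM2. At or below 1/1.5 were 5 genes for H4K16ac (27.0% of windows), 5 for pSIRT1 (27.8%) and 1 for pMCM2 (15.2%). Of these 3 libraries the pMCM2 list was thus the nearest to its flanks. In K562 the pMCM2 ratio was below the pSIRT1 ratio in G1, early S, late S and G2, and above it in middle S. Only in early S were the intervals apart, at 0.4735 (0.349 to 0.633) for pMCM2 and 0.885 (0.688 to 1.13) for pSIRT1. In the other fractions they overlapped, so no order is given there. WWOX departed from the set, with 105 pMCM2 peaks, a density 1.05 times (0.821 to 1.34) that of its flanks, and 54 H4K16ac peaks at 1.20 times (0.840 to 1.70).

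In K562 ChIP the pooled ratios ran from 0.297 to 0.885. The pSIRT1 extremes were early S, at 0.885 (0.688 to 1.13), and middle S, at 0.297 (0.160 to 0.5135). G1, late S, G2 and unfractionated cells gave 0.461, 0.5705, 0.713 and 0.554. The interval lay below 1 in 19 of the 21 lists, and it included 1 for K562 early S pSIRT1 and early S nascent strands. With flanks of 0.5 times the gene length these 2 lists had ratios of 1.08 and 1.02, and the interval then also included 1 for HCT116 pMCM2, at 0.9065 (0.777 to 1.06), K562 late S nascent strands, at 0.859 (0.731 to 1.01), and G2 pSIRT1, at 0.836 (0.627 to 1.11). Without CNTNAP2 the early S pSIRT1 ratio was 1.03, that of G2 pSIRT1 0.923 (0.688 to 1.23) and that of middle S pSIRT1 0.588 (0.259 to 1.22). The middle S pSIRT1 list held only 15 peaks in the genes. The pMCM2 ratio was lowest in G1 (0.420) and highest in G2 (0.646), and the early, middle and late S fractions gave 0.4735, 0.532 and 0.563. The pMCM2 intervals overlapped between neighbouring phases, so no order of phases is given.

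**Figure D2:**
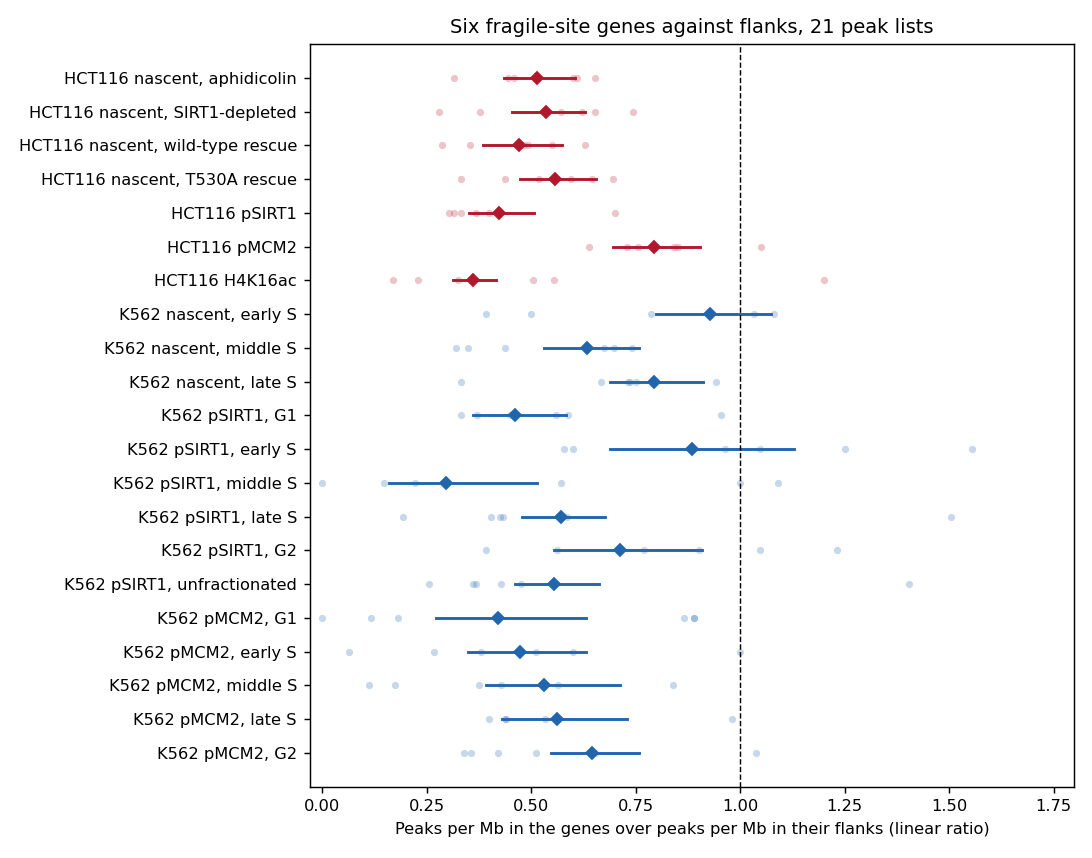
Ratio of peaks per Mb in the 6 genes to peaks per Mb in their flanks (horizontal axis) for each of the 21 lists (rows), HCT116 in red and K562 in blue. Diamonds are the 6 genes pooled with their 95% counting interval, pale dots are single genes, and all 21 diamonds lie left of the dashed line at 1.

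Over the 126 pairs of gene and list, 113 ratios were below 1 (52.0% of pairs of window and list), 86 were at or below 1/1.5 (23.7%) and 2 were at or above 1.5 (16.1%). FHIT was below its flanks in 21 of 21 lists, LRP1B and CNTNAP2 in 20, IMMP2L and MACROD2 in 19, and WWOX in 14. The pair above 1.5 were WWOX in K562 late S pSIRT1, at 1.51 (1.09 to 2.075), and IMMP2L in K562 early S pSIRT1, at 1.56 (0.492 to 4.69). The IMMP2L value rests on 7 peaks against 5 and 4 in the flanks, and its interval includes 1. WWOX was the member closest to its flanks, with a median ratio of 0.923 over the lists, and LRP1B was the lowest with 0.375, near FHIT with 0.400.

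K562 nascent strands were less depleted in the genes. Early S cells had a pooled ratio of 0.927 (0.799 to 1.07), middle S cells 0.635 (0.530 to 0.757) and late S cells 0.793 (0.689 to 0.911). At or below 1/1.5 of their flanks were 2 genes in early S (18.9% of windows), 3 in middle S (25.4%) and 2 in late S (18.0%), FHIT and MACROD2 in each, and LRP1B also in middle S. Against the share of windows, this is a smaller departure than in HCT116 cells.

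Late-replicating genes could hold more of the late S list than of the early S list, and the share of the list addresses this. The 6 genes made up 0.349% of the late S list and 0.364% of the early S list, a ratio of 0.958 (0.808 to 1.14). Their flanks gave 1.12 (1.002 to 1.25). The late S ratio was above 1 with the higher-scoring 50% of each list, at 1.07, and by covered length, at 1.03. The middle S list had less, 0.246%, which is 0.676 times (0.554 to 0.8235) the early S share where the flanks were at 0.987 (0.875 to 1.11). LRP1B had 37, 14 and 42 peaks in early, middle and late S, CNTNAP2 119, 77 and 122, IMMP2L 45, 29 and 49, and WWOX 54, 36 and 52. FHIT with 3, 4 and 4 peaks and MACROD2 with 9, 7 and 17 were too sparse to order.

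The cell lines differed gene by gene. Scaled to the genome average of each list, nascent-strand density in K562 was above all 4 HCT116 lists in 4 genes (34.0% of windows) and below all 4 in 2 genes (34.8% of windows), so each of these orders is common across the genome. In IMMP2L the HCT116 lists lay between 0.317 and 0.522 times the genome average and the K562 lists between 1.44 and 2.07. In CNTNAP2 they lay between 0.301 and 0.502 and between 1.496 and 2.14. Only 8.98% of windows had HCT116 below and K562 above the average in this way. For WWOX the means were 1.11 and 1.73, and for LRP1B 0.169 and 0.652, which leaves LRP1B below average in both lines.

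FHIT and MACROD2 had the opposite order. The FHIT mean was 0.755 in HCT116 and 0.100 in K562, and the MACROD2 mean 0.724 and 0.213. The flanks differed in the same direction between the K562 early S and aphidicolin lists. In the K562 early S list the flanks of FHIT held 3.99 peaks per Mb and those of MACROD2 11.2, against a genome average of 24.2, while the flanks of IMMP2L held 48.4 and those of CNTNAP2 47.7. In the aphidicolin list the flanks of the same genes held 47.9, 42.3, 25.6 and 34.9 per Mb, against a genome average of 31.95. The CNTNAP2 flanks were thus above the average in both lists, while the gene itself was below it after aphidicolin. FHIT was also sparse in K562 ChIP lists, from 0 peaks for pMCM2 in G1 to 12 in G2. Copy number of these segments in the 2 lines was not tested.

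**Figure D3:**
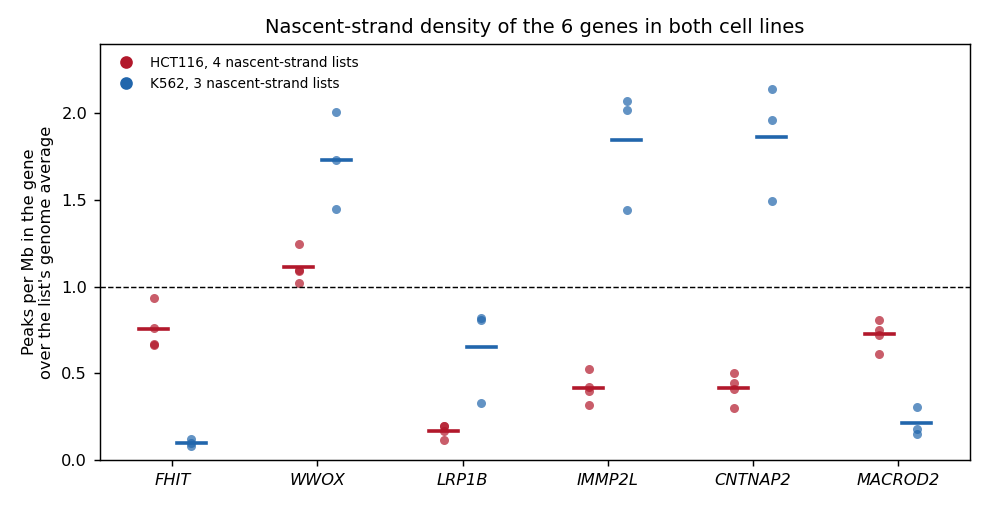
Nascent-strand peaks per Mb in each gene divided by the genome average of the same list (vertical axis), with 1 point per list and a bar at the mean, HCT116 in red and K562 in blue. The point groups do not overlap in any of the 6 genes, and the dashed line marks the genome average.

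Peaks were not spread evenly along the genes. In the aphidicolin list 127 of 186 peak middles, or 68.3% (61.1 to 74.9), lay beyond the midpoint of the gene, on the side of its 3′ end, a description chosen after the positions were seen. The 3′ side held more in each of the 6 genes, and the side of higher coordinates did in 47.3% of windows. The share was 70.7% in depleted cells, 73.6% in the wild-type rescue and 68.2% in the T530A rescue, and 5 genes were so in all 4 lists (28.8% of windows), the exception being LRP1B with 5 against 3 in depleted cells. In K562 it was 57.1%, 61.7% and 58.95% in early, middle and late S, but the 3′ side held more in only 3, 3 and 4 of the 6 genes, and WWOX and CNTNAP2 were among them in each list. The flanks pointed the same way in 5 of the 6 genes after aphidicolin, where the 3′ flank held more peaks than the 5′ flank, IMMP2L being the other.

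WWOX showed the steepest gradient. Aphidicolin peaks covered 8.98%, 0.898%, 1.08%, 24.3% and 54.1% of 5 equal parts from the 5′ to the 3′ end. The last part was covered to 36.5% in depleted cells, 45.9% in the wild-type rescue and 37.6% in the T530A rescue, and to 29.1%, 23.3% and 28.8% in K562 early, middle and late S. In FHIT the last part was covered to 16.6% after aphidicolin and to 0% in K562 early S, so the 3′ cluster of this gene was seen in HCT116 only. CNTNAP2 rose at its 3′ end in all 7 nascent-strand lists, to 6.99% after aphidicolin and 17.7% in K562 early S. IMMP2L had 13.6% in the last part and 2.001% in the first after aphidicolin, and the last part was above the first in all 4 HCT116 lists. In K562 the last and first parts were at 9.95% and 17.2% in early S and 11.7% and 18.2% in late S, but at 7.89% and 5.56% in middle S, so the lists of this line differed.

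**Figure D4:**
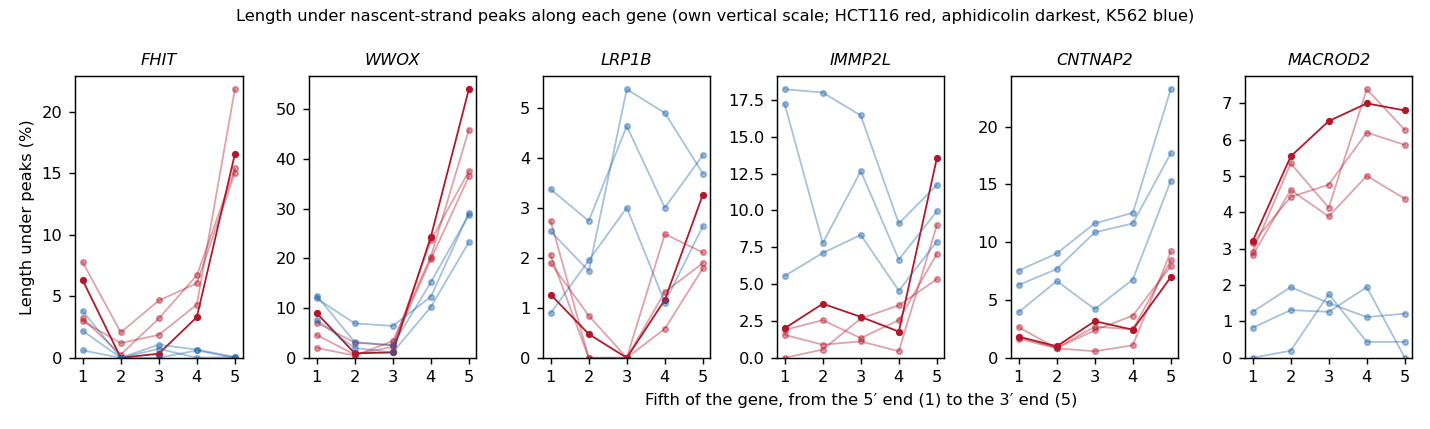
Share of length under nascent-strand peaks (vertical axis, percent, own scale for each gene) in 5 equal parts of each gene from the 5′ end to the 3′ end (horizontal axis), with 1 line per list. In WWOX the last part is the highest in all 7 lists, at 54.1% after aphidicolin.

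The longest stretch without a nascent-strand peak in any of the 4 HCT116 lists lay in LRP1B, at chr2:141655601-142213800, and was 558.2 kb long. Stretches at least as long were found in 2.60% of 1.5 Mb windows, and the window median was 91 kb. The windows do not match the genes in length, and a longer span can hold a longer stretch. In the flanks of LRP1B, each as long as the gene, the longest stretches were 178 and 113 kb. In FHIT the longest was 252.2 kb (6.89% of windows), at chr3:60587401-60839600, and in WWOX 223.6 kb (9.26%), at chr16:78525001-78748600. Both of these were longer than in either flank of the gene. CNTNAP2 followed with 146.8 kb (21.5% of windows) and MACROD2 with 99.2 kb (44.0%), each below its 5′ flank, at 181.8 and 106.8 kb. IMMP2L, which is shorter than a window, had 85.0 kb (54.4%), below the window median, and 84.2 and 250.2 kb in its flanks. The order of the genes holds for all peaks. With the higher-scoring 50% of each list the stretch was longest in CNTNAP2, at 1079.8 kb, ahead of LRP1B at 915.2 kb and IMMP2L at 553.4 kb. Stretches of windows and flanks are not given for that setting.

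These stretches were not empty of other signals. The LRP1B stretch held 14 HCT116 pMCM2 peaks and 5 H4K16ac peaks, no pSIRT1 peak, and 16, 8 and 17 nascent-strand peaks in K562 early, middle and late S. The WWOX stretch held 17 HCT116 pMCM2 peaks, 1 H4K16ac peak and no pSIRT1 peak. In FHIT there were 3 pMCM2, 3 H4K16ac and 2 pSIRT1 peaks and no K562 nascent-strand peak. Some pMCM2 peaks thus lay where no nascent-strand peak was called in HCT116 cells. The stretches differ in length, so these counts do not rank the genes. Over the whole gene, HCT116 pMCM2 density was 94.3 peaks per Mb in WWOX, 19.5 in LRP1B and 15.3 in FHIT. The genome average of that list was 50 per Mb, so LRP1B and FHIT were below it. In K562 the longest stretch without a nascent-strand peak was 599.4 kb in FHIT (2.65% of windows), followed by 278.0 kb in MACROD2 (15.6%), against a window median of 115.2 kb.

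**Figure D5:**
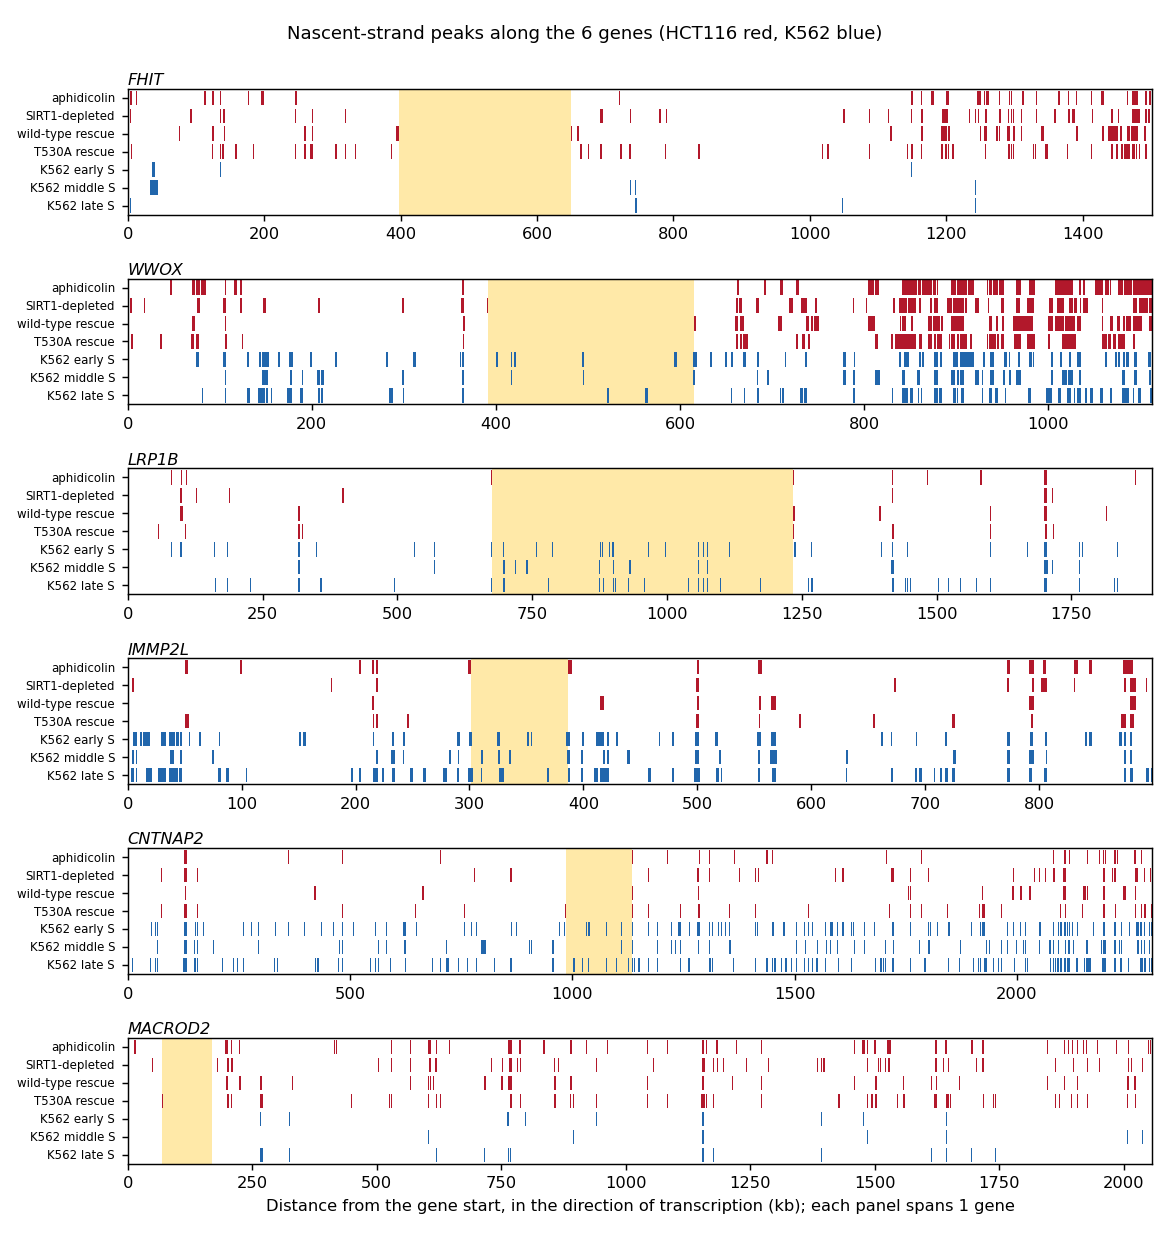
Nascent-strand peaks along each gene in the direction of transcription (horizontal axis, kb from the gene start), with 1 row per list, HCT116 in red and K562 in blue, and peaks drawn no narrower than 1.5 kb. The shaded band is the longest stretch with no peak in the 4 HCT116 lists, 558.2 kb in LRP1B, and K562 peaks lie inside it.

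Of the 188 aphidicolin peaks, 20 overlapped a peak in each of the other 6 nascent-strand lists of both lines. They were 9 in WWOX, 6 in CNTNAP2, 3 in IMMP2L, 1 each in LRP1B and MACROD2 and 0 in FHIT. The same share in the flanks and genome-wide is not given, so these counts cannot be called many or few. The LRP1B site, chr2:141184401-141189600, lay 1702.3 kb from the gene start. It held 187, 195, 199 and 179 reads in the aphidicolin, depleted, wild-type rescue and T530A lists and 229, 242 and 158 in K562 early, middle and late S. In all 7 lists it was the peak with the most reads in the gene, and 3 HCT116 and 6 K562 ChIP lists also had a peak there.

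A pair of CNTNAP2 locations was similar. One, chr7:145941201-145943600, lay 128.9 kb from the gene start, with 120, 405, 176 and 270 reads in the HCT116 lists and 336, 387 and 411 in K562. The other, chr7:148007201-148010200, near the 3′ end, had 119, 263, 255 and 264 reads and 308, 409 and 463. Each overlapped peaks of all 3 HCT116 ChIP lists. The MACROD2 site, chr20:15128401-15134200, with 221, 244, 118 and 319 reads and 131, 212 and 170, was the highest peak of that gene in all 3 K562 lists. These are raw counts per peak, not scaled between libraries, and neighbouring aphidicolin peaks can meet the same wider peak of another list.

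Start sites in the genes lay less often on the ChIP peaks than those in the flanks. Of the aphidicolin peaks, 32.45% (25.8 to 39.6) overlapped pSIRT1 in the genes, 41.0% (37.45 to 44.7) in the flanks and 51.5% genome-wide. For H4K16ac the shares were 34.6% (27.8 to 41.8), 51.85% (48.2 to 55.5) and 68.8%, and for pMCM2 33.5% (26.8 to 40.7), 35.7% and 47.0%. WWOX was again apart, with 27 of 39 peaks on pSIRT1 and 26 on pMCM2, while IMMP2L had 3 and 0 of 15 and LRP1B 1 and 3 of 12. The H4K16ac share was lower in the genes than in the flanks in all 4 HCT116 nascent-strand lists with intervals that did not overlap. For pSIRT1 that was so in 3 of the 4, all but aphidicolin, and for pMCM2 in none.

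In K562 the same direction held in all 33 pairs of a nascent-strand list with a ChIP list, with intervals apart in 2 of 18 pairs for pSIRT1 and 3 of 15 for pMCM2. Early S peaks overlapped G1 pSIRT1 at 6.37% (3.75 to 9.999) in the genes, 13.02% (10.4 to 16.05) in the flanks and 16.6% genome-wide. For G2 pMCM2 the shares were 23.6% (18.6 to 29.15), 37.3% (33.4 to 41.4) and 34.0%. The pairs share lists and are not independent. Sparser ChIP peaks in the genes than in the flanks lower such an overlap, and the part of that density in these shares was not tested.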

How the data were processed

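Peak lists of 21 human libraries were analysed, 7 from HCT116 and 14 from K562, with 1 library per group. Coordinates are on hg19, and the submitters' processing notes name MACS and SICER. For versions, settings and aligner, nothing is given in the sources used here. Per the labels, peaks were called against sheared genomic DNA of the same line. For 18 lists the authors deposited a whole number per region, taken from its values as a read count that is not scaled between libraries. In 2 K562 pSIRT1 lists, G2 and middle S, the authors deposited a decimal score. The HCT116 H4K16ac list has deposited columns with a score, a fold enrichment ratio and −log10 p and q values by the authors' caller, of which only the score was used. Peak calling that differed between lists can change peak number and width, and the depth of the libraries is unknown.

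Overlapping peaks of a list were merged and chromosomes 1 to 22 and X kept. A peak counted in a region when it shared at least 1 bp with it. Densities were compared as ratios with exact Clopper-Pearson 95% intervals, which cover counting error of peaks called once. Genome windows of 1.5 Mb, 1771 in number, were kept where they and both neighbours had peaks of any list in at least 14 of 15 bins of 100 kb and they held no gene of the set. The fold for calls was 1.5. The peaks named are, per gene, the aphidicolin peak with the highest value, the longest stretch without an HCT116 nascent-strand peak and those within 2 kb of the gene start; shared sites were added after their values were seen. Other fragile-site genes, which need an hg19 annotation, were not analysed here. Gene order came from RefSeq (GRCh38.p14), by name. The ratio calculation was tested on simulated data. A further gene of the set is not reported here and enters no value, and windows that hold it were left out. The 6 genes, the lists and the tests were chosen with earlier results of these data known. Analyses used Python 3.11.15, numpy 2.4.6, scipy 1.17.1 and matplotlib 3.10.9.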

Additional observations from a re-analysis of the deposited data

Results flagged for a closer look

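Nascent-strand density fell on opposite sides of the genome average in the 2 cell lines in IMMP2L and CNTNAP2. All 4 HCT116 lists were below the average and all 3 K562 lists above it, and the K562 mean was 4.44 times the HCT116 mean in IMMP2L and 4.51 times in CNTNAP2. With the higher-scoring 50% of each list these were 9.18 and 8.96 times. With 1 library per condition this difference was not tested. The same pattern was found in 8.98% of windows of the genome.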

How the results depend on the processing

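Of 434 recomputed values, 367 stayed inside the counting interval of the value reported and 67 moved outside it. For counts and stretches the limit was 1.5 times, and for cell-line ratios it was the range across lists, not a counting interval. No ratio whose interval or range excluded 1 crossed 1, and no 3′ share whose interval excluded 50% crossed 50%. Shares of peaks on ChIP peaks were not judged for crossing. A further 9 ratios whose interval included 1 crossed it, among them the aphidicolin share relative to the T530A rescue, at 0.966 with peaks within 1 kb merged, and relative to the wild-type rescue, at 0.984 with lists of equal length. The aphidicolin gene-to-flank ratio lay between 0.485 and 0.537 when 1 gene was left out, and between 0.470 and 0.575 with peak middles, peaks within 1 kb merged, covered length, flanks of 0.5 times the length or flanks from 100 kb away. With the higher-scoring 50% of each list it was 0.391, and 29.2% of windows then passed the limit. All 21 lists stayed below their flanks except with flanks of 0.5 times the length (19 lists) and without CNTNAP2 (20 lists). The aphidicolin share relative to depleted cells moved to 1.54 with the higher-scoring 50% and 1.39 by covered length, and relative to the wild-type rescue to 1.49 with the higher-scoring 50%. The first of these intervals then excludes 1, as does that of the flanks, at 1.28 (1.09 to 1.49), and the cause was not tested. With the higher-scoring 50% the longest stretch was 915.2 kb in LRP1B, 1079.8 kb in CNTNAP2, 553.4 kb in IMMP2L, 385.4 kb in FHIT and 333 kb in MACROD2. Intervals also came to include 1 for HCT116 pMCM2 without MACROD2, at 0.867, and with the higher-scoring 50% for K562 G2 pSIRT1, at 0.727, and for WWOX after aphidicolin, at 0.675, while that of K562 early S nascent strands then excluded 1, at 0.7625. The same setting lowered the aphidicolin ratio of LRP1B to 0.143, of CNTNAP2 to 0.165 and of MACROD2 to 0.405. Alternatives for the other lists, the 3′ side, the cell lines, the shared sites and the windows were chosen after seeing the data. No paired analysis was possible because each group has 1 library and no replicate numbers in the labels. Counts of 3 to 17 peaks, as for FHIT and MACROD2 in K562, limit what can be ordered.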
